A study of Homo sapiens with 12 samples.

Results

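The 9 genes described here encode the protein parts of telomere upkeep that are most often examined in high-risk neuroblastoma: the telomerase catalytic subunit (TERT), the 6 shelterin proteins (TERF1, TERF2, TERF2IP, POT1, TINF2 and ACD), and the chromatin proteins ATRX and DAXX. They were taken by gene name from the count files, and all 9 were found among the 19923 genes counted. RNA with a poly(A) tail was sequenced from 2 established lines of human neuroblastoma, SK-N-BE2 and NGP, which carry amplified MYCN and are labelled wild type. Cells of each line received STM2457 or the solvent DMSO for 6 days, with 3 replicates in each of the 4 groups. The dose of STM2457, a small molecule that blocks the RNA methyltransferase METTL3, was 12 µM in SK-N-BE2 and 1 µM in NGP. Each line is a single established culture, and the labels do not say whether replicates came from separate cultures, so the p-values measure the spread between these libraries, which may be technical.

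Chromosome ends shorten at each division unless they are rebuilt. TERT is the reverse transcriptase that adds telomeric repeats, copying the RNA template TERC, and many tumours, MYCN-amplified neuroblastoma among them, keep it switched on. Shelterin coats the repeats and hides them from DNA repair: TERF1 and TERF2 bind the double-stranded repeat, TERF2IP (RAP1) rides on TERF2, POT1 binds the single-stranded overhang, ACD (TPP1) holds POT1 and recruits telomerase, and TINF2 (TIN2) ties the parts together. ATRX and DAXX together place a replication-independent histone H3 variant at telomeres, and loss of ATRX marks neuroblastomas that lengthen telomeres by recombination instead of telomerase. TERC and telomeric transcripts were not analysed here, since the counts cover protein-coding genes.

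The promoter windows of TERT and POT1 are printed because of the values of these genes. TERT had the largest log2 change of the 9 genes in SK-N-BE2, and POT1 was the shelterin gene that fell in both lines. Each window runs from 250 bases before to 50 bases after the start of the gene in RefSeq (GRCh38.p14), 5′ to 3′ on the strand of the gene. The TERT window is chr5:1295019-1295318, minus strand, and the POT1 window is chr7:124929776-124930075, minus strand. In the TERT window the capitals mark the E-box CACGTG, the letters bound by MYC family proteins with MAX, and in the POT1 window they mark TGACGTCA, the cAMP response element.
TERT: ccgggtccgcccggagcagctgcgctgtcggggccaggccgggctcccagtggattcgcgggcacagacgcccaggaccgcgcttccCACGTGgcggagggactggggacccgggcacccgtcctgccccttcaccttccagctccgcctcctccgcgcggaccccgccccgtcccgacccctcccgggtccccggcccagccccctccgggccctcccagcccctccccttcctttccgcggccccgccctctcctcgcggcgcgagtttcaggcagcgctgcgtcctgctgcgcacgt
POT1: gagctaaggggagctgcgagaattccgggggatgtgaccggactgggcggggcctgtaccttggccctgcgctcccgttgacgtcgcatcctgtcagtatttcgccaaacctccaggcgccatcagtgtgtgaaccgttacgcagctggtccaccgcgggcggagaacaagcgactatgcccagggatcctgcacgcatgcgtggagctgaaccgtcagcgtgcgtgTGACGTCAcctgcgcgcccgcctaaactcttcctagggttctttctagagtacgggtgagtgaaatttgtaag
The table of promoters held windows for 5 of the 9 genes (TERT, POT1, TERF2IP, TINF2 and ACD). CACGTG was searched on both strands, which read the same, and was found once in TERT, beginning 163 bases before the start, and in none of the other windows. It occurs in 7.26% of the 35116 promoter windows of 300 bases in the table. The TERT window ends in the letters cacgt, so a match running past its end could not be counted. TGACGTCA, also its own reverse complement, was found once in POT1, beginning 23 bases before the RefSeq start, and occurs in 1.85% of all windows. In the annotation used for the counts POT1 begins at 124929983, inside the window, and the motif lies after that start. The GC box GGGCGG, searched on both strands, was present in the windows of all 5 genes, 3 times in TERT, and in 45.0% of all windows. These motifs were chosen after the values of the genes were known, they do not overlap one another in these windows, and a match is a description of letters only.

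Libraries held from 47242379 to 58159937 counted reads. The target of the drug was checked first: METTL3 transcript was higher with STM2457 in both lines, at 79.5 ± 1.43 against 54.0 ± 3.26 CPM (the count scaled to library size) in SK-N-BE2 and 77.7 ± 2.46 against 40.4 ± 3.59 CPM in NGP (SD, n = 3). MYCN did not pass the test in either line, at -0.09 on the log2 scale for SK-N-BE2 (SE 0.10, edgeR adjusted p 0.453) and 0.00 for NGP (SE 0.11, edgeR adjusted p 0.995). Of 9 adrenergic neuroblastoma markers, 8 reached 1 CPM in each group, while the summed level of 4 blood markers stayed at or below 1.92 CPM and that of 4 epithelial markers at or below 5.41 CPM in each library. The summed level of 8 fibroblast or mesenchymal markers was higher in treated libraries without overlap. In SK-N-BE2 it lay between 470.4 and 495 CPM with DMSO and between 657 and 720 CPM with STM2457, and in NGP between 264 and 282 CPM and between 672 and 813 CPM. Its part in the results below was not tested. The file headers name a different sequencing run for each line, so the effects of line, of dose and of sequencing run cannot be told apart. One library, NGP DMSO replicate 1, differed most from the rest of its group: its log2 CPM differed from the mean of the other 2 replicates with an SD of 0.552 across genes, against 0.338 to 0.460 for the other 11 libraries. Its deviation was lower for longer transcripts (Spearman rho with exon length -0.464 across genes, which are not independent replicates), and NGP values of the 9 genes whose call or sign changed without it are given both ways.

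**Figure D1:**
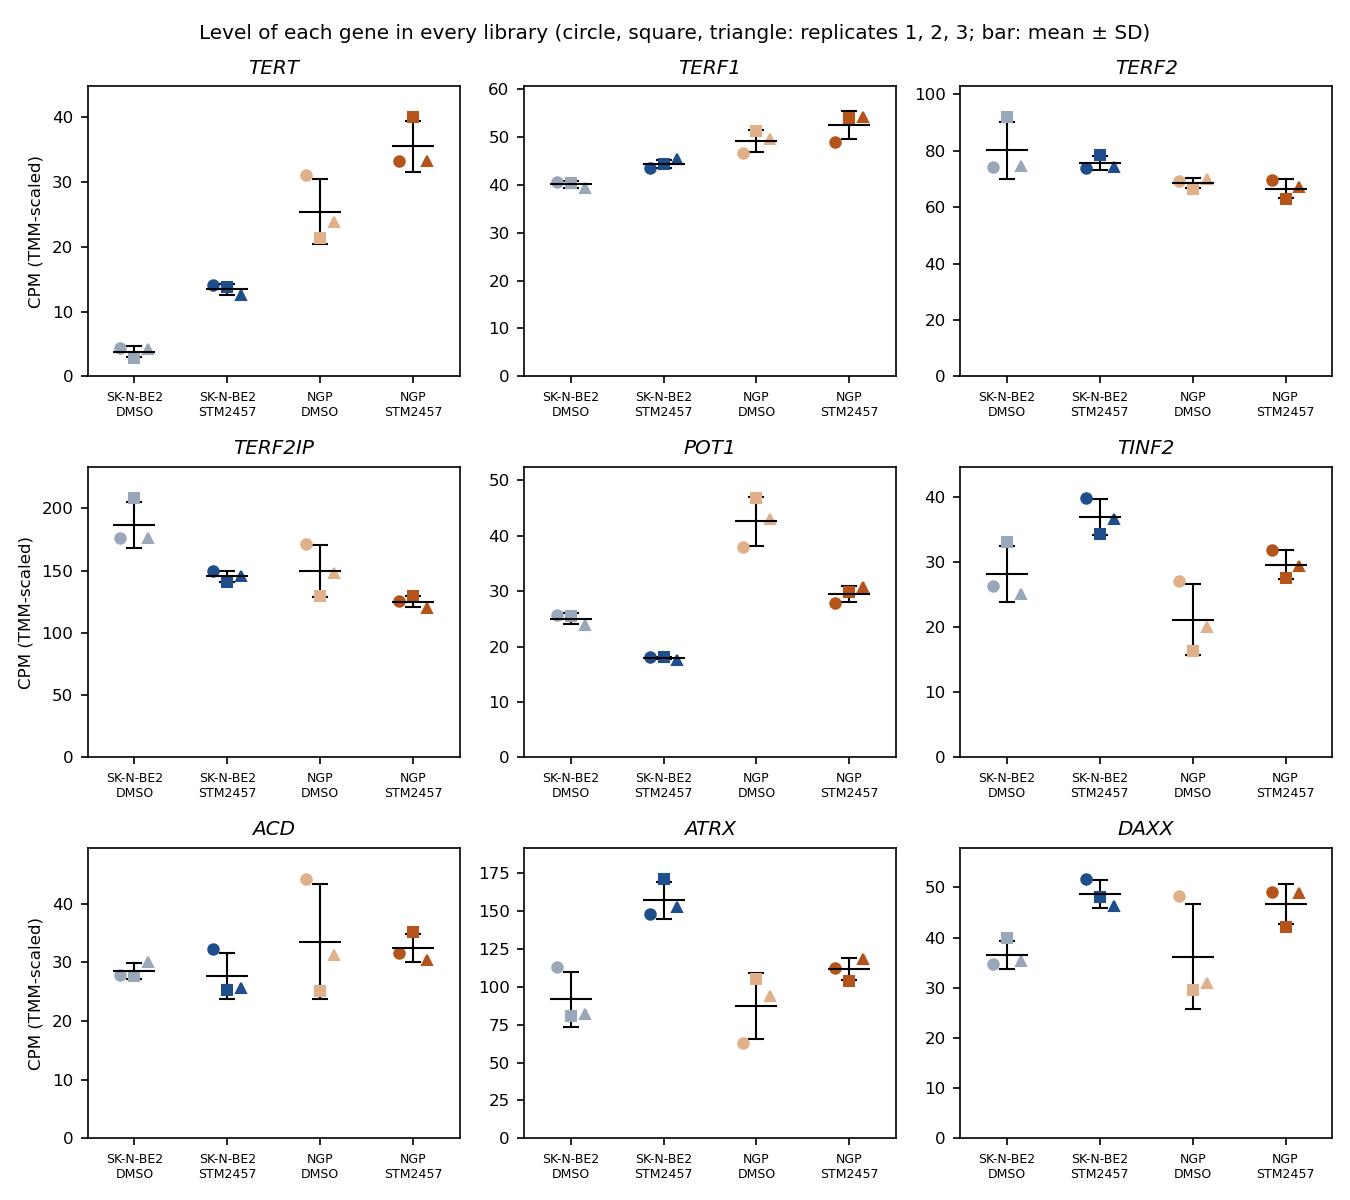
CPM on the TMM scale (vertical axis, from 0) of each of the 9 genes in the 4 groups, with 1 point for each library (circle, square and triangle for replicates 1, 2 and 3) and bars for the mean ± SD of 3 libraries. TERT rises from 2.80 to 4.37 CPM in SK-N-BE2 DMSO to between 33.2 and 40.0 CPM in NGP STM2457, and the circle of NGP DMSO lies apart from the other 2 libraries for ACD, ATRX and DAXX.

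TERT, the catalytic subunit of telomerase, had the largest log2 change of the 9 genes in SK-N-BE2, while that of POT1 was larger in NGP. The gene lies on chromosome 5 (1253147 to 1295068, minus strand, GRCh38). In SK-N-BE2 it measured 4.37, 2.80 and 4.21 CPM with DMSO and 14.1, 13.7 and 12.5 CPM with STM2457, from 139 to 250 reads and from 658 to 761 reads for each library. Every treated library was above every control library. In bulk RNA, a change in RNA per cell cannot be told apart from a change in the share of cells that express the gene. The rise was 3.44-fold, a log2 change of 1.78 (SE 0.16, edgeR quasi-likelihood adjusted p 1.04e-06), and the call held in each of the 15 alternative fits, with log2 changes from 1.61 to 1.90.

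In NGP, TERT started higher and moved less on the log2 scale. It measured 31.1, 21.4 and 23.8 CPM with DMSO and 33.2, 40.0 and 33.2 CPM with STM2457. Mean levels went from 25.4 to 35.5 CPM in NGP and from 3.79 to 13.4 CPM in SK-N-BE2. The rise in CPM was thus similar in the 2 lines. The NGP groups did not overlap, but the highest control, replicate 1, was close to the lowest treated library. The log2 change was 0.46 (SE 0.16, edgeR adjusted p 0.0455), a rise of 1.37-fold. This call rested on single libraries: it was lost without DMSO replicate 2 or 3 or without any one of the 3 STM2457 replicates (log2 change down to 0.35, edgeR adjusted p up to 0.141). Without DMSO replicate 1 it was 0.62 (SE 0.11, edgeR adjusted p 0.000825).

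The difference between the responses was tested in a fit of all 12 libraries. TERT rose by 1.34 more on the log2 scale in SK-N-BE2 than in NGP (SE 0.24, edgeR adjusted p 0.000865), and by 1.15 more without NGP DMSO replicate 1 (SE 0.20, edgeR adjusted p 0.000287). It was the 1 member of 9 called for this difference, against 30.9% of the 14731 genes tested and 17.0% that were called higher. In the DMSO groups alone TERT was 6.68-fold lower in SK-N-BE2 than in NGP (log2 difference -2.74, SE 0.18, edgeR adjusted p 5.57e-09). The order from low to high was SK-N-BE2 DMSO, SK-N-BE2 STM2457, NGP DMSO and NGP STM2457, and neighbours in this order did not overlap. Treated SK-N-BE2 thus remained below control NGP, at 2.27 ± 0.135 against 4.29 ± 0.853 RPKM (the CPM divided by the exon length in kilobases).

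Set against the background, 6 of the 9 members were called in SK-N-BE2 (4 higher, 2 lower), where 54.7% of 14013 genes were called. Treated and control libraries did not overlap for 7 members there, and did not overlap for 62.2% of genes. In NGP 2 of 9 were called (TERT higher, POT1 lower), where 41.7% of 13610 genes were called. There 4 members did not overlap, beside 54.7% of genes. The NGP count depended on single libraries: it was 4 without DMSO replicate 1 (TERT, TINF2 and DAXX higher, POT1 lower), 1 without DMSO replicate 3 or any one of the STM2457 replicates, and 5 with the adjustment for exon length. So only the SK-N-BE2 share is set against the background here, and 6 in 9 lies near it. All 9 had enough reads to be tested in both lines. The median log2 change of the 9 was 0.11 for SK-N-BE2 and 0.07 for NGP, beside -0.02 and -0.03 over all genes tested. TERT and POT1 were the 2 members called in both lines with the same sign, where 21.3% of the 12952 genes tested in both were. A further 4.96% of genes were called in both with opposite signs, which held for none of the members.

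**Figure D2:**
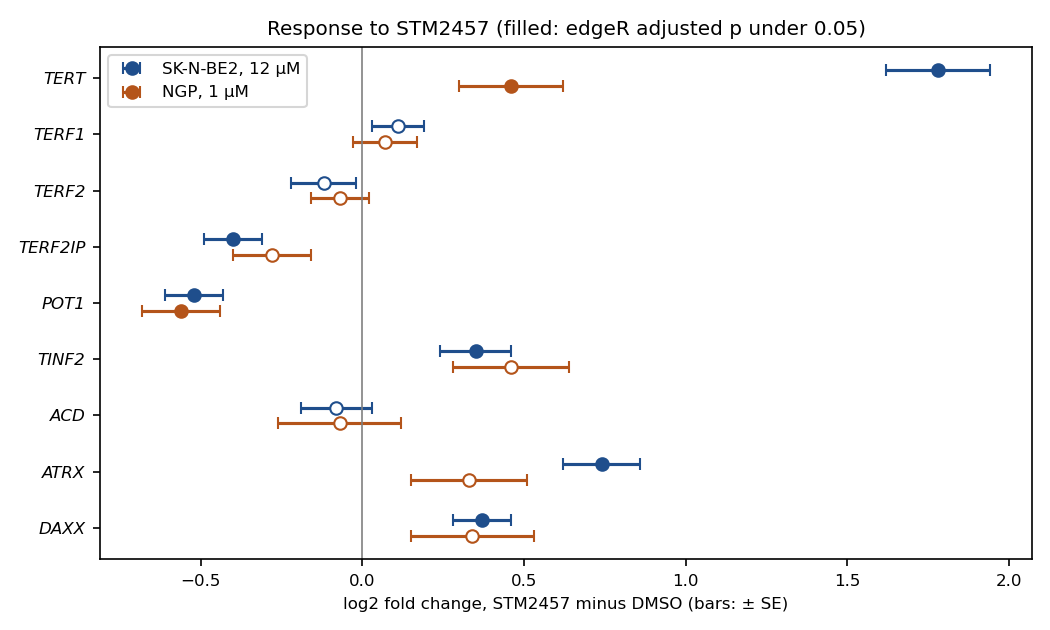
Log2 fold change of STM2457 minus DMSO (horizontal axis) for each of the 9 genes in SK-N-BE2 (blue, 12 µM) and NGP (orange, 1 µM), with bars for ± SE and filled points where the edgeR adjusted p was under 0.05. TERT stands farthest from 0 in SK-N-BE2 at 1.78, and POT1 is the filled point below 0 in both lines, at -0.52 and -0.56.

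The 6 shelterin genes had log2 changes of both signs in each line. In SK-N-BE2 1 of 6 rose (TINF2) and 2 fell (TERF2IP and POT1), where 26.9% and 27.8% of all genes did. These 3 of 6 lie near the 54.7% of all genes called there. In NGP POT1 was the 1 called gene of the 6, where 41.7% of all genes were called. The median log2 change of the 6 was -0.10 in SK-N-BE2 and -0.07 in NGP, beside -0.02 and -0.03 over all genes tested.

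POT1, the overhang-binding protein, fell in both lines. It lies on chromosome 7 (124822386 to 124929983, minus strand). In SK-N-BE2 it went from 25.7, 25.5 and 23.9 CPM with DMSO to 18.1, 18.0 and 17.6 CPM with STM2457. In NGP it went from 38.0, 46.8 and 43.1 CPM to 27.9, 29.8 and 30.7 CPM. Treated and control libraries did not overlap in either line, and in each line the treated replicates lay close together. The log2 changes were -0.52 (SE 0.09, edgeR adjusted p 0.000341) and -0.56 (SE 0.12, edgeR adjusted p 0.00532). The NGP value was -0.64 without DMSO replicate 1, and the call in both lines held whichever library was left out (edgeR adjusted p up to 0.0361). Asking for a change above 0.5 on the log2 scale ended both calls. The difference between the responses was 0.05 (SE 0.14, edgeR adjusted p 0.835).

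POT1 also separated the lines before treatment. It was 1.70-fold lower in SK-N-BE2 DMSO than in NGP DMSO (log2 difference -0.77, SE 0.10, edgeR adjusted p 5.87e-06), and all 20 alternative fits kept this call. From low to high the groups were SK-N-BE2 STM2457, SK-N-BE2 DMSO, NGP STM2457 and NGP DMSO, with no overlap between neighbours.

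TERF2IP, which binds telomeres through TERF2, was the most abundant shelterin transcript per length. It lies on chromosome 16 (75647773 to 75761872, plus strand), and 3.98% of its exon length is shared with KARS1 on the other strand. SK-N-BE2 libraries had 176, 208 and 176 CPM with DMSO and 149.7, 141 and 146 CPM with STM2457. NGP libraries had 171, 129.5 and 148 CPM with DMSO and 126, 129 and 120.4 CPM with STM2457. In both lines every treated library was below every control, by a small margin for NGP DMSO replicate 2. TERF2IP fell in SK-N-BE2 (log2 change -0.40, SE 0.09, edgeR adjusted p 0.00188) and did not pass the test in NGP (-0.28, SE 0.12, edgeR adjusted p 0.0819). Without DMSO replicate 2 the NGP value was -0.37 and passed (edgeR adjusted p 0.0283), and without DMSO replicate 1 it was -0.18 (edgeR adjusted p 0.0618). The difference between the lines was not called (-0.10, SE 0.15, edgeR adjusted p 0.631).

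TINF2, the bridge between the TERF proteins and ACD, had positive log2 changes in both lines. It lies on chromosome 14 (24239643 to 24242674, minus strand), and 10.1% of its exon length overlaps an unnamed gene on the other strand, so its value is uncertain. It measured 26.4, 33.1 and 25.1 CPM in SK-N-BE2 DMSO and 39.9, 34.3 and 36.7 CPM in SK-N-BE2 STM2457. It measured 27.1, 16.3 and 20.1 CPM in NGP DMSO and 32.0, 27.6 and 29.4 CPM in NGP STM2457. Groups did not overlap in either line, and the highest control came close to the lowest treated library in both. TINF2 rose in SK-N-BE2 (log2 change 0.35, SE 0.11, edgeR adjusted p 0.0179), a call lost without DMSO replicate 3 or STM2457 replicate 1 (edgeR adjusted p up to 0.0813) and in a joint fit of all 12 libraries (0.39, edgeR adjusted p 0.0620). In NGP the value was 0.46 (SE 0.18, edgeR adjusted p 0.0712), and without DMSO replicate 1 it was 0.67 and passed (SE 0.11, edgeR adjusted p 0.000794). DESeq2 called it with all 6 libraries (0.48, DESeq2 adjusted p 0.0344).

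TERF1, TERF2 and ACD did not pass the test in either line. TERF1, which measures telomere length at the double-stranded repeat and lies on chromosome 8 (73008864 to 73048123, plus strand), ranged from 39.4 to 40.6 CPM in SK-N-BE2 DMSO and from 43.7 to 45.4 CPM in SK-N-BE2 STM2457. Those groups did not overlap, yet the log2 change was 0.11 (SE 0.08, edgeR adjusted p 0.271), and in NGP it was 0.07 (SE 0.10, edgeR adjusted p 0.630). The reference names 7 pseudogenes after TERF1, and reads that map to several places were not counted, so its level is uncertain. TERF2, which folds the overhang into the protective loop (chromosome 16, 69355567 to 69408571, minus strand), ranged from 74.1 to 91.9 CPM in SK-N-BE2 DMSO and from 73.9 to 78.5 CPM with STM2457. Its log2 changes were -0.12 (SE 0.10, edgeR adjusted p 0.296) and -0.07 (SE 0.09, edgeR adjusted p 0.597). ACD (chromosome 16, 67657512 to 67660815, minus strand) measured 44.2, 25.1 and 31.3 CPM in NGP DMSO and from 30.4 to 35.2 CPM in NGP STM2457. Replicate 1 was again the library out of step. The log2 change of ACD in NGP was -0.07 (SE 0.19, edgeR adjusted p 0.787) and turned to 0.17 without that library (edgeR adjusted p 0.205). In SK-N-BE2 ACD was at -0.08 (SE 0.11, edgeR adjusted p 0.543), with overlapping groups.

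The makeup of shelterin was then compared per length, as the share of each gene in the summed RPKM of the 6. TERF2IP held 50.8 ± 0.503% in SK-N-BE2 DMSO and 43.5 ± 0.509% with STM2457, and 45.2 ± 0.803% and 40.2 ± 0.905% in NGP (SD, n = 3). TINF2 took the opposite course, with 12.5 ± 0.779% and then 18.0 ± 0.733% in SK-N-BE2, and 10.4 ± 1.40% and then 15.5 ± 1.14% in NGP. POT1 had the smallest share in each of the 4 groups, at 3.47 ± 0.278% (DMSO) and 2.72 ± 0.0930% (STM2457) for SK-N-BE2 and 6.67 ± 1.48% and 4.81 ± 0.297% for NGP. For these 3 genes the shares of treated and control libraries did not overlap in either line. TERF1 shares did not overlap for SK-N-BE2 (5.49 ± 0.441% with DMSO, 6.66 ± 0.331% with STM2457) but did for NGP. By level, 62.2% of all genes tested for SK-N-BE2 had groups that did not overlap, and 54.7% of those tested for NGP. The 6 shares are parts of the same sum, so a fall in the largest by itself raises the others. By level, neither TERF2IP nor TINF2 was called in NGP (edgeR adjusted p 0.0819 and 0.0712). POT1 and its partner ACD stood at 0.325 ± 0.0278 POT1 RPKM for each ACD RPKM in SK-N-BE2 DMSO and 0.242 ± 0.0304 with STM2457. In NGP the ratio was 0.505 ± 0.186 with DMSO, where replicate 1 (0.318) lay below replicates 2 and 3 (0.689 and 0.509), and 0.338 ± 0.0310 with STM2457. With 3 libraries a group, an exact permutation test of such a ratio cannot reach 0.05, and none is given. The levels are of RNA, and say nothing of protein.

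**Figure D3:**
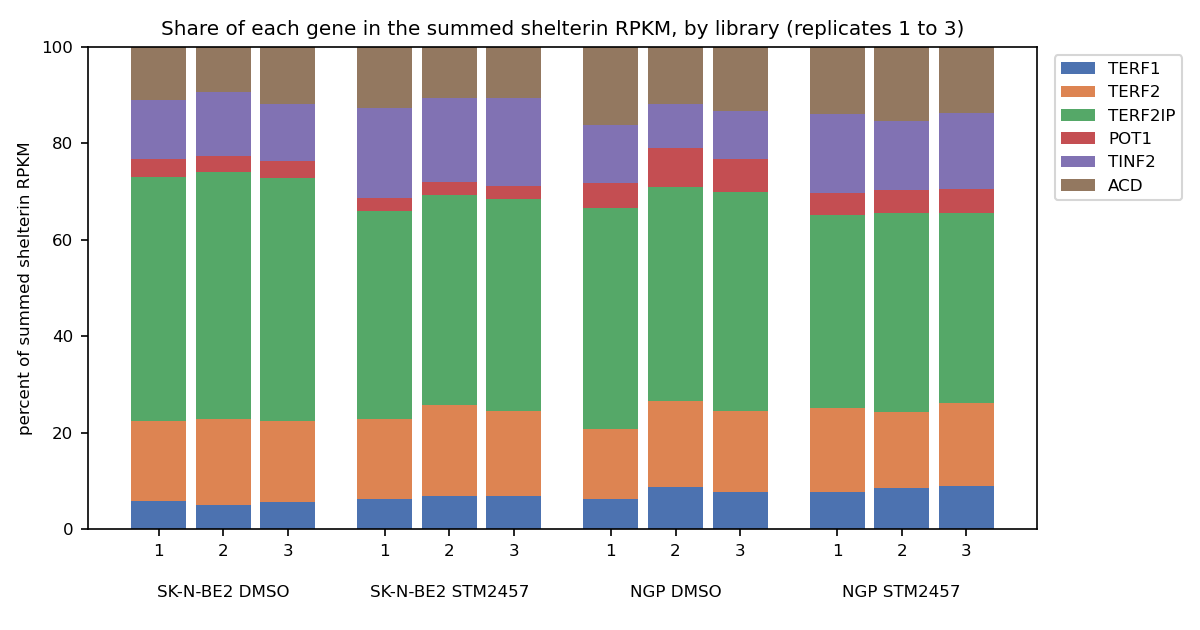
Share of each of the 6 shelterin genes in their summed RPKM (vertical axis, percent) in each of the 12 libraries, grouped by line and treatment. TERF2IP fills 50.8% of the bar on average in SK-N-BE2 DMSO and 43.5% with STM2457, while TINF2 widens from 12.5% to 18.0%.

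ATRX, the chromatin remodeller, rose in SK-N-BE2. The gene lies on the X chromosome (77504878 to 77786233, minus strand) and, at 19.3 kilobases of exon, is the longest of the 9. It measured 113, 80.7 and 82.4 CPM in SK-N-BE2 DMSO and 148, 171 and 153 CPM with STM2457, with no overlap. The log2 change was 0.74 (SE 0.12, edgeR adjusted p 0.000161). DMSO replicate 1, the highest control, was also the SK-N-BE2 library whose deviation rose most with exon length (Spearman rho 0.387). With each library adjusted for its trend with exon length the change was 0.60 (SE 0.08, edgeR adjusted p 3.91e-05).

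In NGP, ATRX measured 63.3, 105.5 and 93.9 CPM with DMSO and 113, 104 and 118 CPM with STM2457. The groups overlapped, since DMSO replicate 2 was above STM2457 replicate 2. The log2 change was 0.33 (SE 0.18, edgeR adjusted p 0.174), 0.14 without DMSO replicate 1 (edgeR adjusted p 0.176) and 0.28 with the adjustment for exon length (SE 0.09, edgeR adjusted p 0.0348). The difference between the lines was not called with all libraries (0.42, SE 0.23, edgeR adjusted p 0.191) and was called without NGP DMSO replicate 1 (0.59, SE 0.17, edgeR adjusted p 0.0102).

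DAXX, the histone chaperone that partners ATRX, lies on chromosome 6 (33318558 to 33323016, minus strand). It measured 34.7, 39.8 and 35.3 CPM in SK-N-BE2 DMSO and 51.6, 48.2 and 46.3 CPM with STM2457, where every treated library was above every control. DAXX rose there, with a log2 change of 0.37 (SE 0.09, edgeR adjusted p 0.00337). A same-strand gene without a symbol shares 14.3% of its exon length, so its value is uncertain. NGP DMSO libraries had 48.3, 29.5 and 30.9 CPM, and NGP STM2457 libraries had 49.1, 42.2 and 48.9 CPM. Replicate 1 of the controls lay with the treated libraries, and the log2 change of 0.34 (SE 0.19) did not pass (edgeR adjusted p 0.178). Without that library it was 0.60 and passed (SE 0.09, edgeR adjusted p 0.000395). The difference between the lines was 0.04 (SE 0.22, edgeR adjusted p 0.914), and -0.24 without that library (edgeR adjusted p 0.172).

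**Figure D4:**
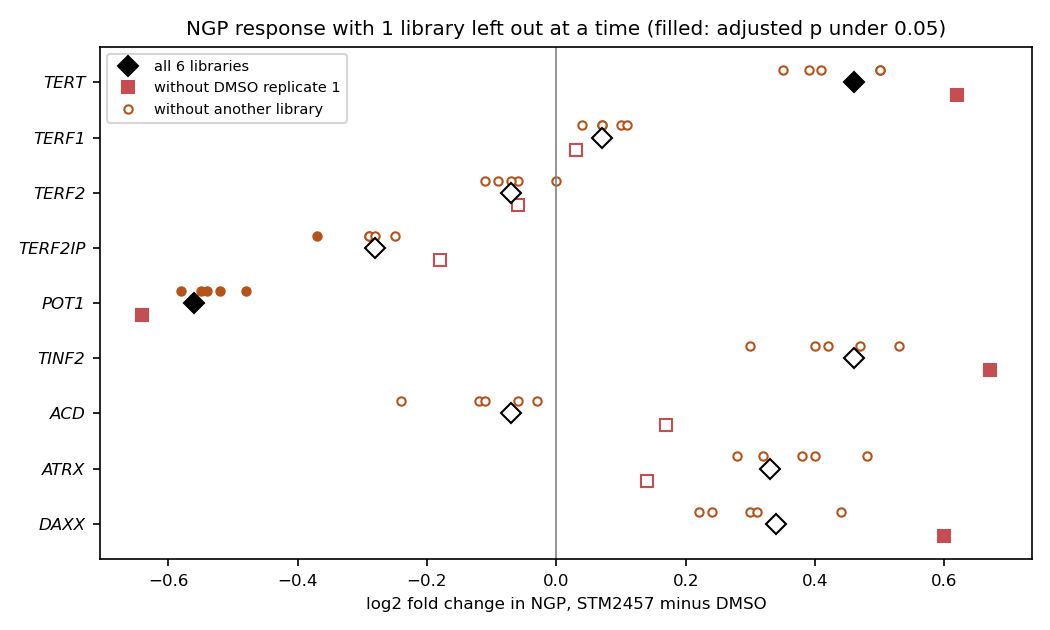
Log2 fold change in NGP (horizontal axis) of the 9 genes from all 6 libraries (black diamonds), without DMSO replicate 1 (red squares) and without each of the other 5 libraries (orange circles), filled where the edgeR adjusted p was under 0.05. TINF2 and DAXX are filled only as red squares, at 0.67 and 0.60, and POT1 is filled in each fit.

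Between the untreated lines, 6 of 9 members were called (3 higher and 3 lower in SK-N-BE2), where 71.1% of 14731 genes were (35.7% higher and 35.4% lower). The lines did not overlap for 5 members, beside 68.9% of genes. Besides TERT and POT1, TERF1 was lower in SK-N-BE2 (log2 difference -0.29, SE 0.08, edgeR adjusted p 0.00477). TERF2IP, TINF2 and TERF2 were higher, by 0.32, 0.41 and 0.23 (edgeR adjusted p 0.0123, 0.0342 and 0.0437). The TERF2 call did not hold in 9 of 12 leave-one-out fits (edgeR adjusted p up to 0.164), that of TINF2 in 3 (without SK-N-BE2 DMSO replicate 2 or NGP DMSO replicate 2 or 3, up to 0.141) and that of TERF2IP in 1 (without NGP DMSO replicate 2, 0.0530). ATRX and DAXX, at 0.07 and 0.02 (SE 0.17 and 0.16), overlapped between the lines. Without NGP DMSO replicate 1 DAXX was called (0.30, edgeR adjusted p 0.0135) and ATRX was at -0.09, while with the adjustment for exon length ATRX was called (0.23, edgeR adjusted p 0.0301). Per length, TERF2IP led in each group (28.3 to 42.2 RPKM on average), and TERT was the lowest of the 9 in SK-N-BE2 DMSO (0.640 ± 0.146 RPKM). In NGP STM2457, TERT had 5.99 ± 0.662 RPKM, TERF1 5.94 ± 0.331 and ATRX 5.80 ± 0.382, and the ranges of these 3 genes overlapped. The exon lengths used there, 5920, 8832 and 19266 bases, take in all transcripts of a gene. The canonical transcripts of TERT, TERF1 and ATRX have 4039, 3329 and 11165 bases. The likeness of the 3 levels thus depends on the length used, and levels per length are uncertain between genes.

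Another 49 genes of telomere maintenance, from telomerase assembly to end replication and the chromatin of telomeres that lengthen by recombination, were looked up in the same fits. In SK-N-BE2, 26 of the 45 tested were called, 16 higher and 10 lower, where 26.9% and 27.8% of all genes were. In NGP 18 of 44 were called, 11 higher and 7 lower, where 19.4% and 22.2% of all genes were. The NGP count was 28 without DMSO replicate 1 and 9 without STM2457 replicate 1 or 3. It was 11 without DMSO replicate 3 or STM2457 replicate 2. Of the 44 genes tested in both lines, 4 were higher in both, 2 lower in both and 4 called with opposite signs, where 10.5%, 10.8% and 4.96% of all genes were. For the difference in response 14 of 45 were called, 7 in each direction, where 30.9% of all genes were, and 25 were called without NGP DMSO replicate 1.

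**Figure D5:**
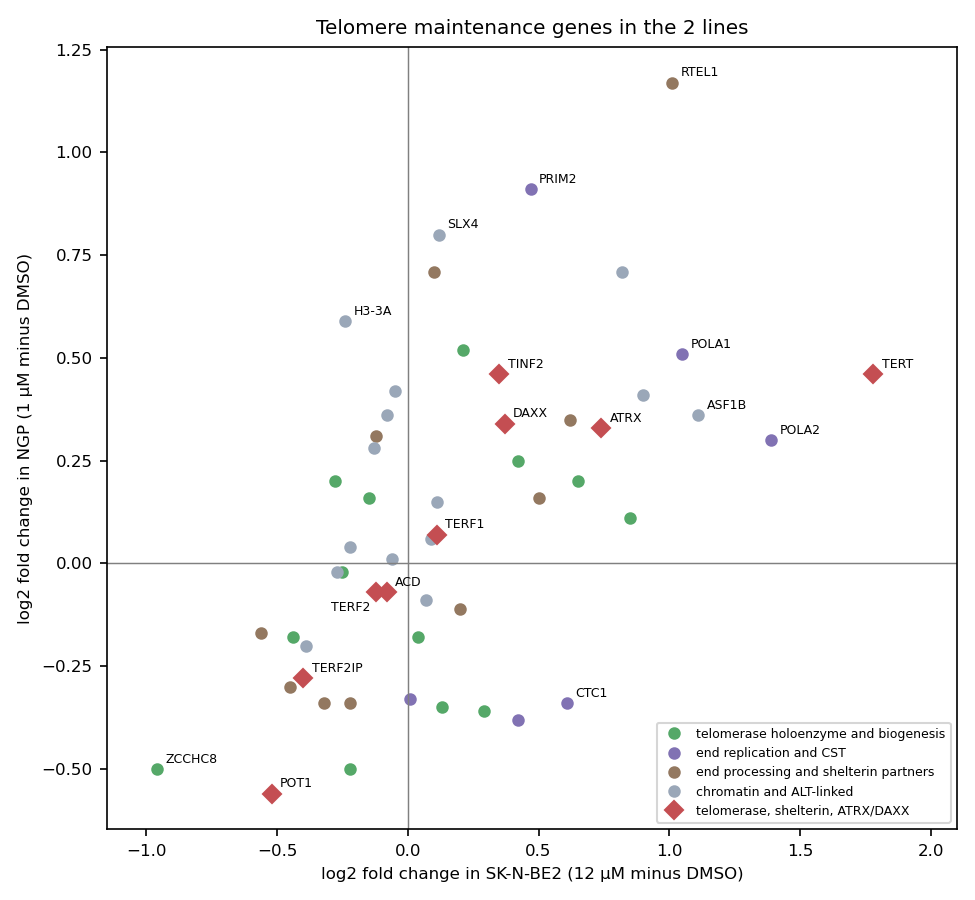
Log2 fold change in SK-N-BE2 (horizontal axis) against that in NGP (vertical axis) for the 9 genes (red diamonds) and the 44 other telomere maintenance genes tested in both lines (circles, coloured by role), 1 point for each gene. TERT lies at the far right (1.78, 0.46), ZCCHC8 at the far left (-0.96, -0.50) near POT1 (-0.52, -0.56), and CTC1 at lower right (0.61, -0.34).

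Among partners of TERT, 8 of 13 telomerase assembly genes were called in SK-N-BE2 (4 higher, 4 lower) and 4 of 13 in NGP (1 higher, 3 lower). Over all genes the shares called were 54.7% and 41.7%. ZCCHC8, which helps trim the telomerase RNA, fell in both lines. SK-N-BE2 had 82.1 ± 2.62 CPM with DMSO and 43.2 ± 2.27 with STM2457, and NGP had 889.8 ± 75.2 and 641 ± 6.75 CPM (SD, n = 3). Its log2 changes were -0.96 and -0.50 (edgeR adjusted p 7.05e-07 and 0.00415). GAR1, a protein of the mature telomerase particle, fell in NGP (log2 change -0.50, edgeR adjusted p 0.0286). Without DMSO replicate 1 it was at -0.33 (edgeR adjusted p 0.0120), and its call was lost without DMSO replicate 3 or any one of the STM2457 replicates (up to 0.115). The lines differed in this group before treatment: ZCCHC8 was lower in SK-N-BE2 DMSO by 3.44 on the log2 scale (log2 difference -3.44, edgeR adjusted p 6.93e-13) and TEP1, a telomerase-associated protein, was higher by 1.39 (edgeR adjusted p 3.24e-07).

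The genes that fill in the opposite strand after telomerase, the CST complex and DNA polymerase alpha-primase, were mostly higher in treated SK-N-BE2. There 5 of the 6 tested were called higher, where 26.9% of all genes were, with a median log2 change of 0.54 beside -0.02 over all genes. STN1, a CST subunit, was at 0.01 (edgeR adjusted p 0.962). In NGP 2 of 6 were called higher and 3 lower, where 19.4% and 22.2% of all genes were. POLA1, the catalytic subunit, rose in SK-N-BE2 by 1.05 and in NGP by 0.51 (edgeR adjusted p 1.22e-06 and 0.00831). POLA2 rose in SK-N-BE2 by 1.39 (edgeR adjusted p 3.59e-06), but same-strand genes cover 36.1% of its exon length and its value is uncertain. In NGP it was at 0.30 (edgeR adjusted p 0.353), and at 0.68 without DMSO replicate 1 (edgeR adjusted p 0.000271). PRIM1, the small primase subunit, rose by 0.42 (log2) for SK-N-BE2 and was at -0.38 for NGP (edgeR adjusted p 0.00554 and 0.0249). The NGP call was lost without DMSO replicate 3 or STM2457 replicate 1 or 2 (edgeR adjusted p up to 0.117). CTC1, the largest CST protein, had 15.3 ± 1.55 CPM with DMSO and 24.1 ± 0.562 with STM2457 in SK-N-BE2, while NGP had 54.4 ± 4.03 and 43.7 ± 2.33 CPM (SD, n = 3). Both changes passed (0.61 and -0.34, edgeR adjusted p 0.000221 and 0.0296), as did their difference (0.97, SE 0.14, edgeR adjusted p 0.000163). In NGP the call was lost without DMSO replicate 2 or any one of the STM2457 replicates (edgeR adjusted p up to 0.127), while the difference was called in all 12 leave-one-out fits. PRIM2, the large primase subunit, rose by 0.47 in SK-N-BE2 and 0.91 in NGP (edgeR adjusted p 0.00550 and 0.000281). PRIM1 was 2.37 lower on the log2 scale in SK-N-BE2 DMSO than in NGP DMSO (log2 difference -2.37, edgeR adjusted p 1.07e-10), and 22.2% of its exon length is shared with other genes.

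Of the 10 end-processing genes, 7 were called in SK-N-BE2 (4 higher, 3 lower) and 3 in NGP (2 higher, 1 lower), beside 54.7% and 41.7% of all genes. RTEL1, a helicase that unwinds the telomere loop, rose in both lines. In NGP the log2 change was 1.17 (edgeR adjusted p 0.00246). SK-N-BE2 went from 2.24 ± 0.681 CPM with DMSO to 4.65 ± 0.258 CPM with STM2457 (SD, n = 3, edgeR adjusted p 0.00153). The difference between the lines was not called (-0.14, edgeR adjusted p 0.782). A read-through transcript covers 70.2% of the exons of RTEL1, and its value is uncertain. RAD50, of the MRE11 complex, and ZBTB48, a telomere-binding zinc finger protein, fell in SK-N-BE2 (log2 changes -0.56 and -0.45, edgeR adjusted p 0.0357 and 0.00129). RAD50 shares 76.9% of its exon length with other genes and is uncertain. Its call was lost without DMSO replicate 1 or 3 or STM2457 replicate 2 or 3 (edgeR adjusted p up to 0.171). Of 16 chromatin and recombination genes tested in SK-N-BE2, 3 rose and 3 fell, where 26.9% and 27.8% of all genes did. Of 15 in NGP 6 were called, each higher, where 41.7% of all genes were called and 19.4% were higher. Among these, the calls of ASF1A, PML and SMARCAL1 were lost in 5, 3 and 4 of 6 leave-one-out fits. ASF1B, a histone chaperone of S phase, rose in SK-N-BE2 by 1.11 (edgeR adjusted p 7.23e-07). SLX4, a scaffold for nucleases, rose in NGP by 0.80 (edgeR adjusted p 0.00393). H3-3A, which encodes the histone that ATRX and DAXX place, was at -0.24 (log2) with SK-N-BE2 and at 0.59 with NGP (edgeR adjusted p 0.0403 and 0.00488), and near-identical copies make it uncertain. Its SK-N-BE2 call held only without DMSO replicate 1 among the 6 leave-one-out fits (edgeR adjusted p up to 0.150), and its NGP call held in each. SP100, a protein of the nuclear bodies seen at recombining telomeres, had 178 reads over the SK-N-BE2 DMSO libraries and 1 over those of NGP DMSO. The ratio was 171, with a 95% counting interval from 30.3 to 6791. This interval takes each read as independent, while 1 fragment can add 2 reads, so it is approximate.

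The genes whose log2 CPM followed TERT most closely over the 12 libraries were PDE9A, TP53I11 and DSCC1, each with a Pearson r of 0.992, among 12647 genes ranked. With group means removed, r was 0.753, 0.746 and 0.624. Nearest to ATRX were DST, DNAJC13 and DOCK4, with r of 0.987, 0.985 and 0.970, and 0.973, 0.977 and 0.943 within groups. Those 3 have 47.9, 9.63 and 11.9 kilobases of exon. The points share their libraries, line, run and treatment, and these values are a description.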

How the data were processed

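Members, lists and alternatives were chosen with earlier results of these data known. Reads were counted by the authors, per the file headers, on exons of protein-coding genes of GENCODE 33 (GRCh38), by gene name, with featureCounts 2.0.5, without a strand option and without counting of read pairs, so 1 fragment can add 2 reads and antisense reads cannot be told apart. The deposited values are raw counts. The submitters' processing notes list FastQC 0.11.5, Trimmomatic 0.36, HISAT2 2.1.0 and Subread 1.5.3, without roles. Intervals cover counting error only, with each read taken as independent.

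Models were fitted with edgeR 4.0.16 under R 4.3.3, on 6 libraries for a single line and on all 12 for comparisons between lines. Genes were kept by filterByExpr at a minimum count of 10, libraries scaled by TMM, and the quasi-likelihood test used with Benjamini-Hochberg adjustment over all genes tested (threshold 0.05). An SE is the absolute log2 change over the root of F. CPM used TMM factors of all 12 libraries, and RPKM the exon length in the files. Overlaps of exons used GENCODE 44, on the same build. No spike-in was used, so changes are relative.

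Alternatives were DESeq2 size factors, no filter, a filter on mean CPM (1 or more), DESeq2 1.42.0, a replicate block, counts halved, glmTreat above 0.5, a joint fit, each library left out, and, chosen after seeing the data, offsets for exon length in 20 bins and leave-one-out values of the list genes. Always named were the 9 members, METTL3 and MYCN. From the list, the 3 largest called changes in each direction in each line, and 2 for the other comparisons, with at least 1 CPM in the higher group, were named. The 3 genes most like TERT and ATRX by Pearson r of log2 CPM (prior count 2) were named too. Some genes of the list, such as CTC1 and H3-3A, are also described in comparisons where this rule did not name them, after their values were seen. On simulated counts with 200 genes changed by 1 on the log2 scale, the fits called 84.8% of the changed genes tested for SK-N-BE2 (13904 genes), 78.4% for NGP (13484), 55.8% for the difference between lines (14526) and 76.3% between the DMSO groups (14527), and false calls were 7.69%, 13.3%, 1.79% and 5.73% of calls.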

Additional observations from a re-analysis of the deposited data

Results flagged for a closer look

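Responses of the members, the list genes and METTL3 that differed between the lines are listed here, each by the test of the difference itself over all 12 libraries (SK-N-BE2 minus NGP, edgeR adjusted p under 0.05). They are 1 of 9 members and 14 of 45 list genes, where 30.9% of all genes were called. TERT had a log2 difference of 1.34, from 1.78 for SK-N-BE2 and 0.46 for NGP. METTL3, the drug target, had -0.39, since its transcript rose in both lines and more in NGP (0.52 and 0.92, edgeR adjusted p 0.0279 for the difference). Among polymerase alpha-primase and CST genes, CTC1 had 0.97, POLA1 0.55, POLA2 1.10 (0.70 without NGP DMSO replicate 1) and PRIM1 0.82. Among telomerase assembly genes, RUVBL1 had 0.67 and WRAP53 0.75. CTC1, PRIM1, H3-3A and RUVBL1, 4 of the 44 list genes tested in both lines, passed the test in each line with opposite signs. Of all genes tested in both lines, 4.96% did. The NGP calls of CTC1, PRIM1 and RUVBL1 were lost in 4, 3 and 3 of 6 leave-one-out fits. The SK-N-BE2 call of H3-3A was lost in 5 of 6. ASF1B had 0.77, with log2 changes of 1.11 and 0.36, SLX4 had -0.67, with 0.12 and 0.80, and H3-3A had -0.82, with -0.24 and 0.59. NBN had -0.59, ASF1A -0.39, PML -0.45 and SMARCAL1 -0.43, each called higher in NGP and not called in SK-N-BE2. The NGP calls of ASF1A, PML and SMARCAL1 were lost in 5, 3 and 4 of 6 leave-one-out fits, and that of NBN in 0. The differences of SLX4, WRAP53, ASF1A, PML and SMARCAL1 were lost in 3, 4, 2, 1 and 10 of the 12 leave-one-out fits. ZCCHC8 fell in both lines and more in SK-N-BE2, with a difference of -0.45. Dose and sequencing run differed with the line, and their parts cannot be told apart.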

How the results depend on the processing

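For the 9 members, 548 of 630 alternative values kept both their direction and their side of the threshold, 37 lost and 14 gained a call, and 31 changed sign. Asking for a change above 0.5 on the log2 scale left 2 members in SK-N-BE2, 0 in NGP by edgeR's glmTreat (TERT and POT1 lost) and 2 between the DMSO groups, and 8, 2, 2 and 17 of the other telomere genes in SK-N-BE2, in NGP, for the difference and between the DMSO groups. Tested against no change, 4 members in NGP had an unadjusted edgeR p under 0.05 and DESeq2 called 3. Leaving out 1 library gave from 1 to 4 members and from 9 to 28 other telomere genes in NGP, from 1 to 2 members and from 11 to 25 others for the difference (2 and 25 without NGP DMSO replicate 1). With exon length offsets 5 members were called in NGP.

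With the replicate block, which the labels' numbers alone give, 2 members were called between the DMSO groups (TERT and POT1) and 11 other telomere genes in NGP, and TERT in NGP lost its call (0.47, edgeR adjusted p 0.0626). Correlations of same-numbered deviations ran from -0.0737 to 0.0876, so the numbers were not taken to pair the samples.

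Changes of sign were all in values that were not called. With length offsets ACD in NGP was 0.00, POT1 for the difference -0.01 and DAXX between DMSO groups -0.09. ACD for the difference was -0.01 with DESeq2 size factors, with the 1 CPM filter and with DESeq2, -0.04 with the block and 0.00 with counts halved, and DAXX between DMSO groups was -0.22 with the block. Over the fits leaving out a library, ACD ran from -0.24 to 0.17 in NGP, from -0.26 to 0.17 for the difference and from -0.40 to 0.04 between DMSO groups. For the difference DAXX ran from -0.24 to 0.17, TERF2 from -0.12 to 0.05, TINF2 from -0.33 to 0.06 and POT1 from -0.03 to 0.11. Between DMSO groups ATRX ran from -0.09 to 0.23 and DAXX from -0.11 to 0.30. The cause was not tested. The lowest count of a member in a library was 139 reads.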

Other observations

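GGACT, the DNA spelling of the letters most often seen at METTL3 sites, was counted on the sense strand of the GENCODE 44 canonical transcript of each gene. POT1 had 1 match (0.255 per kilobase), the lowest density of the 9, and TERF2 had 4 (1.34 per kilobase), the highest. TERT had 4 matches in 4039 bases (0.990 per kilobase), against a median of 0.926 per kilobase over 19976 protein-coding genes. Methylation was not analysed here, and a match is no site.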
